A study of Mus musculus with 6 samples.

Results

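This account concerns 32 genes that charge tRNAs with amino acids or supply the amino acids, measured in cultured mouse macrophages with and without resolvin D1 (RvD1). The genes were taken by symbol from the single deposited expression table and fall into 3 roles. They comprise 20 cytosolic aminoacyl-tRNA synthetase subunits, 6 enzymes of serine, asparagine and one-carbon synthesis, and 6 plasma membrane amino acid transporters. All 32 had a row among the 38087 genes of the table, and all 32 were among the 18899 genes tested.

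Aminoacyl-tRNA synthetases attach each amino acid to its tRNA, the step that feeds the ribosome. When charged tRNA runs short, uncharged tRNA activates the kinase GCN2, which phosphorylates the initiation factor eIF2. Translation then slows while that of the transcription factor ATF4 increases, and ATF4 is known to induce many synthetases, serine and asparagine enzymes and amino acid transporters.

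The study set 3 libraries of bone marrow-derived macrophages exposed to 10 nM RvD1 for 6 h against 3 libraries of the same cells left untreated. RvD1 is a lipid mediator derived from docosahexaenoic acid, and ALX/FPR2 is its receptor. The mice behind all 6 libraries were male C57BL/6J animals, 8 to 10 weeks old by the protocol and 2 to 4 months old by another label. The marrow was grown for 7 days with macrophage colony-stimulating factor (10 ng/ml) and then held for 24 h without it, and no vehicle is described for the untreated cells. Nothing in the labels ties the libraries of a group to different mice or culture dishes. The p-values therefore measure only how these samples vary, a spread that may be technical.

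Estimated depth was 11.2 to 16.3 M reads per RvD1 library and 9.05 to 14.3 M per untreated library. Levels are given as log2 of normalized reads, and a change is the mean log2 level with RvD1 minus that in untreated cells. All 8 macrophage markers were above 0 in every library, with summed levels of 102490 to 131570 normalized reads with RvD1 and 98473 to 128070 untreated. Stromal markers summed to 37845 to 58596 with RvD1 and 41289 to 48328 untreated, with RvD1 replicate 1 highest. Endothelial markers summed to 411 to 1107 with RvD1, again highest in replicate 1, and 310 to 491 untreated. Lymphocyte markers summed to at most 6.11 with RvD1 and 5.49 untreated, and the B and T cell markers Ms4a1, Cd3e and Cd3g were at 0. Erythroid and megakaryocyte markers, for which Hbb-bs was at 0, summed to 6637 to 7712 with RvD1 and 7432 to 8664 untreated, and dendritic cell markers to 62.7 to 72.8 with RvD1 and 53.2 to 69.5 untreated. No marker gene passed the test described next.

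The test of RvD1 against untreated cells was limma with treatment as the only term, Benjamini-Hochberg adjusted over all tested genes. None of the 32 genes passed it, beside 1.12% of all tested genes. The smallest adjusted p among the 32 in limma was 0.124, for Eprs. At an unadjusted p under 0.05, 4 genes were higher with RvD1 (Eprs, Rars, Nars and Mthfd2), beside 10.3% of all tested genes, and 2 were lower (Vars and Farsa), beside 9.65%. These 6 of 32 (18.8%) stand beside 19.9% of all tested genes at that level, so the share was near the background. The libraries of both groups did not overlap in 6 genes (18.8%), where 25.4% of all tested genes had no overlap. An alternative fit with a replicate block, described at the end, called 6 of the 32 (18.8%), beside 10.0% of all tested genes.

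The changes were small and went both ways. Log2 changes lay between -0.24 and 0.23, 19 positive and 13 negative, where 50.8% of all tested genes had a positive change. Their median was 0.063, beside 0.0044 over all tested genes. Their median size regardless of sign was 0.10, beside 0.16 over all tested genes. The 95% intervals of all 32 genes lay between 0.736-fold and 1.34-fold. RNA was measured in bulk, so fewer cells expressing a gene and less RNA per cell cannot be told apart.

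**Figure D1:**
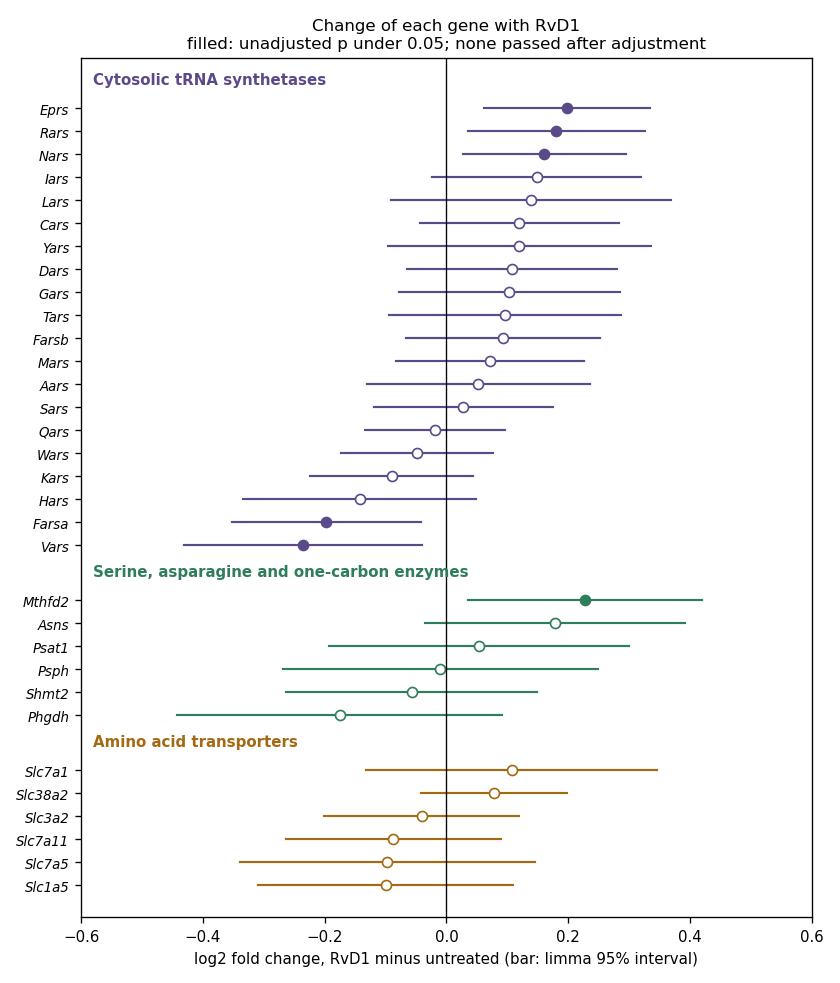
Log2 change with RvD1 minus untreated (x axis) for each of the 32 genes (rows, by role and then by change), with limma 95% intervals as bars, n = 3 libraries per group. Filled points mark an unadjusted p under 0.05, which 6 genes reach, and no gene passes after adjustment.

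The 32 genes ranked the libraries within a group alike. RvD1 replicate 1 held the highest RvD1 level in 25 of the 32 genes and RvD1 replicate 3 the lowest in 24. Untreated replicate 1 held the highest untreated level in 27 and untreated replicate 3 the lowest in 29. Over 13176 genes with a mean log2 level of at least 5, the same libraries held those places in 36.2% and 31.1% with RvD1 and in 36.7% and 35.5% untreated. Stromal and endothelial markers were also highest in replicate 1 of both groups, at 58596 (stromal) and 1107 (endothelial) in RvD1 and 48328 and 491 in untreated cells. Unlike most of the 32 genes, they were lowest in replicate 2, at 37845 and 411 in RvD1 and 41289 and 310 in untreated cells. Macrophage markers were lowest in replicate 1, at 102490 normalized reads in RvD1 and 98473 in untreated cells. They were highest in replicate 3, at 131570 in RvD1 and 128070 in untreated cells. Markers of neutrophils and their progenitors also ran the other way from the 32 genes, with summed levels of 5387, 7566 and 14193 normalized reads in RvD1 replicates 1, 2 and 3 and 4174, 6596 and 14579 in untreated replicates 1, 2 and 3. The part of these marker lists in the spread of the 32 genes was not tested.

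**Figure D2:**
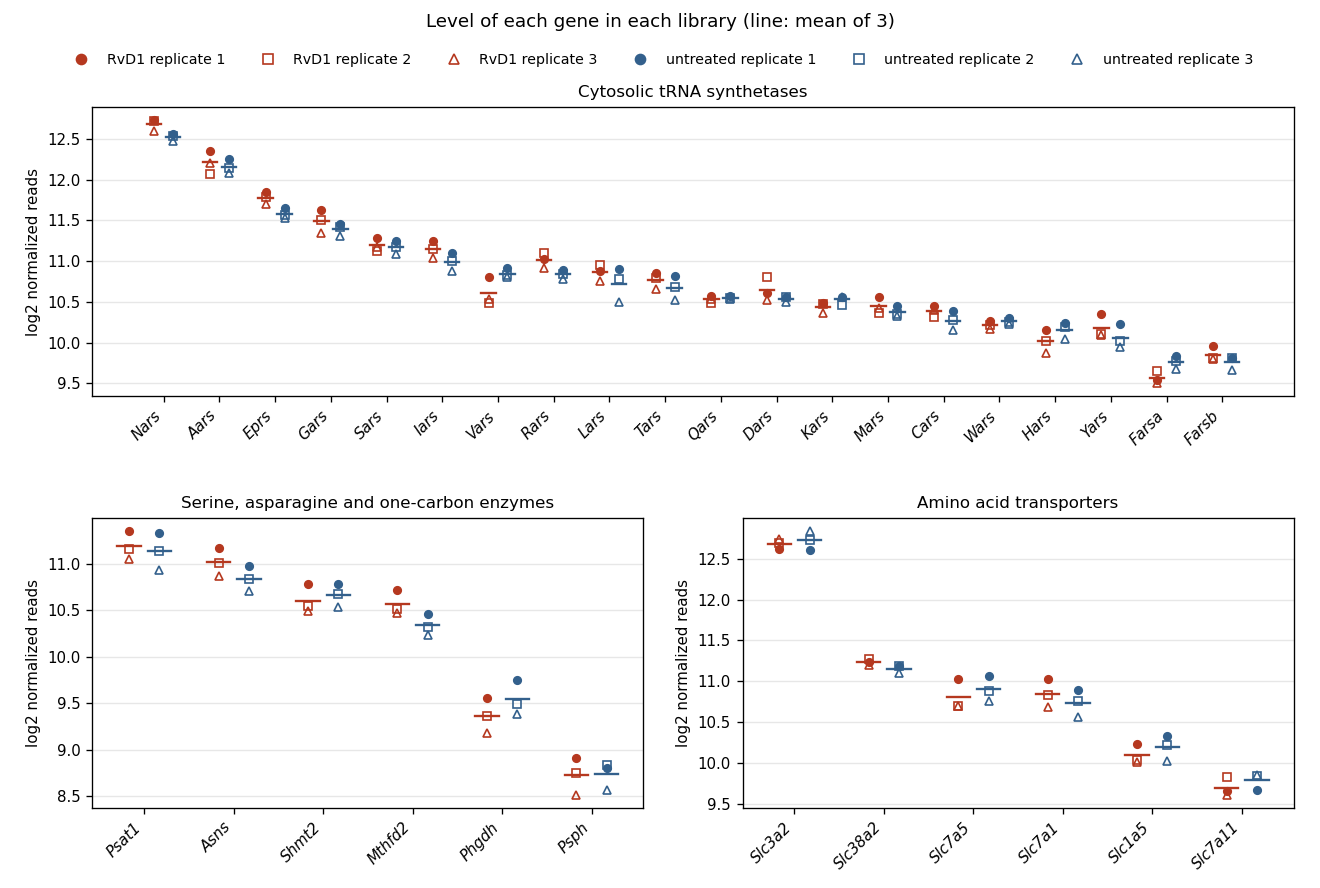
Level of each gene (log2 normalized reads, y axis) in each of the 3 RvD1 libraries (red) and the 3 untreated libraries (blue), with a line at each group's mean. Replicate 1 (circles) sits at the top and replicate 3 (triangles) at the bottom of most genes in both groups.

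Among the synthetases, 14 of 20 changes were positive, beside 50.8% of all tested genes, and the median was 0.094. At the unadjusted threshold 3 were higher and 2 lower (25.0% in all, beside 19.9% of all tested genes). Eprs (chr1:185363044-185428360, plus strand; mm10, GENCODE M21, as for the other gene locations) encodes the enzyme that charges tRNAs with glutamate and proline, a member of the multi-synthetase complex. Its level was 11.85, 11.78 and 11.71 in RvD1 replicates 1, 2 and 3 and 11.65, 11.57 and 11.53 in untreated replicates 1, 2 and 3. All RvD1 libraries lay above all untreated libraries, and the change was 0.20 (SE 0.060, 1.15-fold, 95% interval 1.04 to 1.26; limma adjusted p = 0.124). After correction for transcript length and GC content the change of Eprs was 0.046.

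Rars (chr11:35808381-35834506, minus strand), the arginine enzyme of the same complex, stood at 11.03, 11.11 and 10.92 with RvD1 and 10.89, 10.84 and 10.78 untreated. The groups did not overlap, though RvD1 replicate 3 lay close above untreated replicate 1. Its change was 0.18 (SE 0.064; limma adjusted p = 0.171). Nars (chr18:64499647-64516652, minus strand), which charges asparagine and acts outside that complex, stood at 12.74, 12.72 and 12.61 with RvD1 and 12.57, 12.53 and 12.48 untreated. These groups did not overlap either, and the change of Nars was 0.16 (SE 0.059; limma adjusted p = 0.180).

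On the lower side, Vars (chr17:35000987-35016322, plus strand), the valine enzyme, stood at 10.81, 10.49 and 10.54 with RvD1 and 10.92, 10.83 and 10.80 untreated. RvD1 replicate 1 lay among the untreated libraries and the other RvD1 libraries lay below them. The change of Vars was -0.24 (SE 0.086, 0.849-fold, 95% interval 0.742 to 0.972; limma adjusted p = 0.180). Without RvD1 replicate 1 the change was -0.33 and passed (limma adjusted p = 0.0439, where 2.39% of all tested genes passed), and after correction for length and GC content it was -0.085.

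Farsa (chr8:84856989-84869257, plus strand), the catalytic subunit of the phenylalanine enzyme, stood at 9.54, 9.66 and 9.50 with RvD1 and 9.84, 9.77 and 9.68 untreated. Every RvD1 library lay below every untreated one, RvD1 replicate 2 only just, with a change of -0.20 (SE 0.068; limma adjusted p = 0.163). Hars, the histidine enzyme, stood at 10.16, 10.02 and 9.87 with RvD1 and 10.24, 10.19 and 10.05 untreated. Its groups overlapped and its change was -0.14 (SE 0.084; limma adjusted p = 0.389).

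The active phenylalanine enzyme holds both Farsa and Farsb subunits, and their transcripts differed in the sign of the change. Farsb stood at 9.96, 9.81 and 9.79 with RvD1 and 9.81, 9.81 and 9.67 untreated, a change of 0.093 (SE 0.070; limma adjusted p = 0.509). Within a library, log2 Farsb minus log2 Farsa was 0.42, 0.15 and 0.29 in RvD1 replicates 1, 2 and 3 and -0.030, 0.033 and -0.010 in untreated replicates 1, 2 and 3. The mean difference was thus 0.29 ± 0.14 with RvD1 and -0.0025 ± 0.032 untreated (SD, n = 3 each), with no overlap of the groups. This pair was chosen after its values were seen, so it is given as a description with no test. After correction for length and GC content the changes were -0.22 for Farsa and 0.048 for Farsb.

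**Figure D3:**
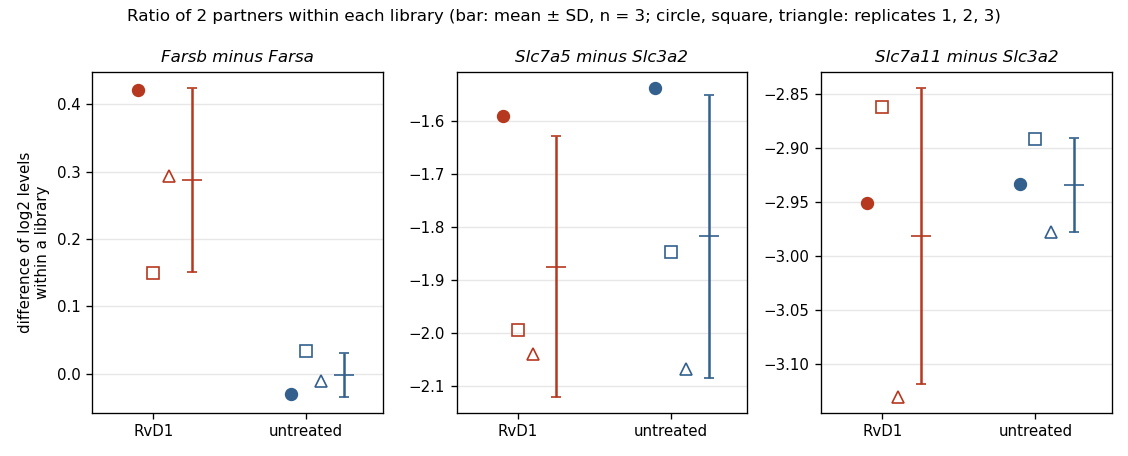
Difference of log2 levels between the transcripts of protein partners within each library (y axis), for RvD1 and untreated libraries, with bars for mean ± SD (n = 3). Farsb minus Farsa lies between 0.15 and 0.42 with RvD1 and between -0.030 and 0.033 untreated, while the groups overlap in both pairs with Slc3a2.

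The other 14 synthetases, Farsb included, had changes between -0.090 (Kars, the lysine enzyme) and 0.15 (Iars, the isoleucine enzyme), and all of them missed an unadjusted p of 0.05. The 8 synthetases of the multi-synthetase complex had a median change of 0.12, with 6 positive, and the other 12 had a median of 0.073, with 8 positive. Per kilobase of the longest annotated transcript, Nars (11.07 on the log2 scale, untreated mean) and Gars (10.14), the glycine enzyme, had the highest levels among the synthetases. Farsa (8.02) had the lowest, a rank that rests on the length used. Before division by length, Farsa and Farsb both had an untreated mean of 9.76, with longest transcripts of 3341 and 2036 bases. Levels of the 32 genes on that scale ran from 11.23 for Slc3a2 to 6.58 for Slc7a11.

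Among the 6 enzymes of serine, asparagine and one-carbon synthesis, 3 changes were positive and 3 negative, with a median of 0.022. Mthfd2 (chr6:83305691-83325908, minus strand), the mitochondrial folate enzyme that passes on one-carbon units taken from serine, stood at 10.72, 10.51 and 10.47 with RvD1 and 10.47, 10.32 and 10.23 untreated. Its groups were apart only narrowly, the lowest RvD1 and the highest untreated library both rounding to 10.47. The change of 0.23 (SE 0.084, 1.17-fold, 95% interval 1.02 to 1.34; limma adjusted p = 0.185) was the highest of the 32 genes. It was 0.23 also after correction for length and GC content.

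Asns, which makes asparagine with nitrogen from glutamine, stood at 11.17, 11.02 and 10.87 with RvD1 and 10.98, 10.84 and 10.71 untreated. The groups overlapped, as they did in all of the 6 enzymes other than Mthfd2, and the change was 0.18 (SE 0.094; limma adjusted p = 0.333). The 3 enzymes of serine synthesis from a glycolytic intermediate differed in sign, and none reached an unadjusted p of 0.05. Phgdh, the entry enzyme, stood at 9.55, 9.37 and 9.18 with RvD1 and 9.75, 9.49 and 9.38 untreated, a change of -0.18 (SE 0.12; limma adjusted p = 0.451). Psat1, the transaminase of the next step, stood at 11.35, 11.16 and 11.06 with RvD1 and 11.33, 11.14 and 10.94 untreated, a change of 0.054.

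Psph, the phosphatase of the last step, had the fewest normalized reads of the 32 genes (log2, not per length), 8.91, 8.75 and 8.51 with RvD1 and 8.80, 8.83 and 8.56 untreated. Its change was -0.010 (SE 0.11), and RvD1 replicate 1 was the highest library and RvD1 replicate 3 the lowest. Shmt2, the mitochondrial enzyme that splits serine into glycine and a one-carbon unit, stood at 10.78, 10.55 and 10.50 with RvD1 and 10.78, 10.68 and 10.54 untreated. Its change of -0.057 turned to 0.091 after correction for length and GC content. Limma adjusted p was 0.827 for Psat1, 0.972 for Psph and 0.776 for Shmt2.

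None of the 6 transporters reached an unadjusted p of 0.05, and 2 changes were positive and 4 negative, with a median of -0.064. Slc3a2 encodes the heavy chain that carries the light chains Slc7a5 and Slc7a11 to the cell surface. It stood at 12.62, 12.69 and 12.74 with RvD1 and 12.61, 12.73 and 12.83 untreated, a change of -0.040 (SE 0.070; limma adjusted p = 0.798). Unlike most of the 32 genes, it was highest in replicate 3 of both groups. Slc7a5, the light chain for large neutral amino acids such as leucine, stood at 11.03, 10.70 and 10.70 with RvD1 and 11.07, 10.88 and 10.77 untreated, a change of -0.097 (SE 0.11; limma adjusted p = 0.662).

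Slc7a11, the light chain that imports cystine in exchange for glutamate, stood at 9.67, 9.83 and 9.61 with RvD1 and 9.68, 9.84 and 9.85 untreated. The groups overlapped, with a change of -0.087 (SE 0.078; limma adjusted p = 0.579). Its transcript is the longest of the 32 and has the lowest GC content (40.7%). After correction for both, its change was -0.34 (SE 0.075; limma adjusted p = 0.154). Relative to Slc3a2 in the same library, Slc7a5 lay at -1.87 ± 0.25 with RvD1 and -1.82 ± 0.27 untreated, and Slc7a11 at -2.98 ± 0.14 with RvD1 and -2.93 ± 0.043 untreated (log2 difference, SD, n = 3 each).

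Slc7a1, a carrier of cationic amino acids such as arginine, stood at 11.03, 10.83 and 10.69 with RvD1 and 10.89, 10.76 and 10.56 untreated. The groups overlapped and the change was 0.11 (SE 0.11; limma adjusted p = 0.618). Slc1a5, which carries glutamine and other neutral amino acids, stood at 10.24, 10.04 and 10.01 with RvD1 and 10.34, 10.22 and 10.03 untreated, a change of -0.100 (SE 0.092; limma adjusted p = 0.593). The groups overlapped there too. Slc38a2, a sodium-coupled carrier of small neutral amino acids, stood at 11.24, 11.27 and 11.20 with RvD1 and 11.18, 11.19 and 11.10 untreated. It was the only transporter whose groups did not overlap, with a change of 0.078 (SE 0.053; limma adjusted p = 0.455). After correction for length and GC content Slc7a5, Slc3a2 and Slc1a5 had changes of 0.0093, 0.029 and 0.029 and Slc38a2 of -0.071, each with the sign turned.

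The changes of the 32 genes were lower at higher GC content, as across all genes. Their log2 changes had a Spearman correlation of -0.503 with the GC content of the longest transcript, which ran from 40.7% (Slc7a11) to 60.9% (Vars). The correlation was -0.571 across 13024 genes with a mean log2 level of at least 5. With transcript length the correlation was -0.0081 among the 32 genes and 0.352 across the 13024 genes. These are descriptions across genes that share the same 6 libraries, and genes are not independent replicates. With length and GC content corrected in each library, 22 of the 32 changes were positive and their median was 0.038. Across the 13024 genes, 6280 corrected changes were positive and the median was -0.0055. None of the 32 passed in limma after correction, beside 0.175% of all tested genes. At an unadjusted p under 0.05 there were 5 (Cars and Mthfd2 higher, Farsa, Kars and Slc7a11 lower), beside 12.3% of all tested genes. Of the 6 genes at that level before correction, only Farsa and Mthfd2 remained. Eprs, Rars, Nars and Vars did not (limma unadjusted p = 0.426, 0.0657, 0.0652 and 0.250 after correction). The corrected change was 0.13 for Rars and 0.12 for Nars.

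**Figure D4:**
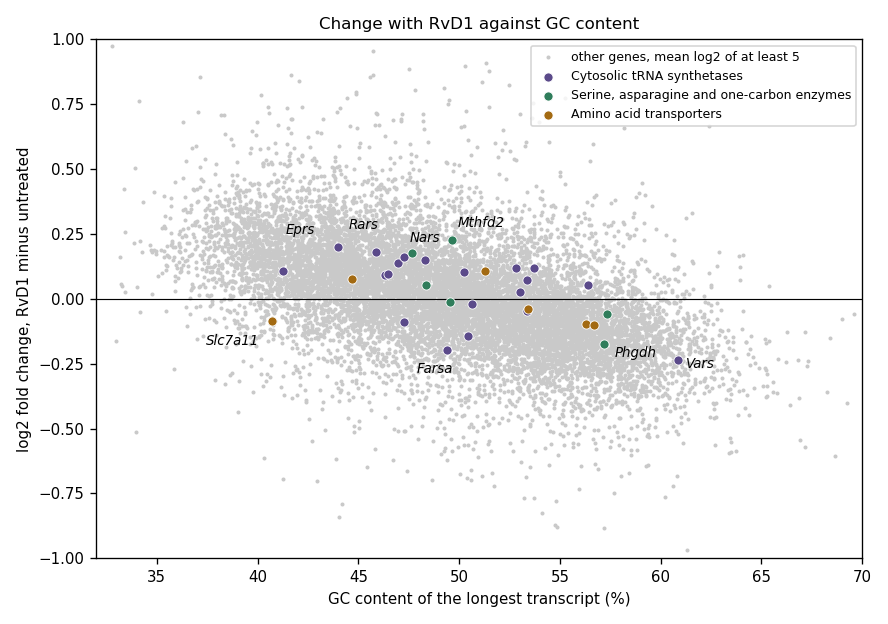
Log2 change with RvD1 minus untreated (y axis) against GC content of the longest transcript (x axis, %) for the 32 genes (coloured by role) and the other genes with a mean log2 level of at least 5 (grey), of which 37 lie outside the axes. Genes of high GC content such as Vars and Phgdh lie below 0 and Eprs, Rars and Nars, of lower GC content, above it, with exceptions at both ends such as Slc7a11 at 40.7% (-0.087) and Aars at 56.4% (0.053).

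Promoters were searched for TGATGNAA on both strands, the core of the C/EBP-ATF response element through which ATF4 is known to act. Promoter sequences, from 250 bases before to 50 after the transcript start (RefSeq, GRCm38.p6), were matched for 23 of the 32 genes. The letters were found in 7 of the 23 (30.4%: Aars, Asns, Gars, Iars, Slc7a11, Tars and Yars), beside 4.51% of the promoters of 27025 genes. In Iars and Yars the only match lay after the start, 7 and 3 bases from it. The genes had been chosen for functions that ATF4 controls, and this share was not tested. The other 5 promoters had a match before the start and are shown so that the matches can be compared. Each stretch is written 5′ to 3′ on the gene's own strand, with the match in capitals, either as TGATGNAA or as its reverse complement.
Asns (chr6:7693210-7693258, minus strand): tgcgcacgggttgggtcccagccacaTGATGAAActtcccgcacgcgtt
Gars (chr6:55037945-55038000, plus strand): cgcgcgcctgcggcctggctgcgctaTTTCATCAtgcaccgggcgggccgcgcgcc
Tars (chr15:11399659-11399699, minus strand): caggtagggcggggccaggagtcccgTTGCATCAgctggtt
Aars (chr8:111033704-111033763, plus strand): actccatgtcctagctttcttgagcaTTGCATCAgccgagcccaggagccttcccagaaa
Slc7a11 (chr3:50443639-50443693, minus strand): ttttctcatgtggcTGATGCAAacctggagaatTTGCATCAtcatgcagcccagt

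In Asns the match began 23 bases before the start, in Gars 30, in Tars 15 and in Aars 112. Aars held a further match 9 bases after the start, not shown. Slc7a11 held the letters once on each strand, 66 and 47 bases before the start, with 11 bases between them. Log2 changes of the 7 genes with a match ran from -0.087 (Slc7a11) to 0.18 (Asns) with a median of 0.10, and none reached an unadjusted p of 0.05. The 16 genes whose promoters had no match ran from -0.20 (Farsa) to 0.23 (Mthfd2) with a median of 0.041, and 3 reached that level. A second motif, CACGTG, was found in 4 of the 23 promoters (17.4%: Aars, Farsb, Iars and Tars), beside 8.09% of all promoters. A match describes the letters only and shows neither binding nor a cause of a change.

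Genes of the stress response to amino acid shortage and other genes of amino acid use were set beside the 32. Of 20 integrated stress response genes, 1 passed the test, the pseudokinase Trib3, a target of ATF4. It rose to 8.84, 8.54 and 8.65 with RvD1, against 8.17, 8.02 and 7.85 untreated, a change of 0.66 (SE 0.11, 1.58-fold, 95% interval 1.33 to 1.87; limma adjusted p = 0.0386). At an unadjusted p under 0.05, 11 of the 20 genes were higher and 2 lower (65.0% in all, beside 19.9% of all tested genes), with a median change of 0.20. Trib3 no longer passed without RvD1 replicate 2 or 3 or without untreated replicate 1, 2 or 3 (limma adjusted p = 0.145, 0.127, 0.0777, 0.151 and 0.125), nor with no filter on low values (0.0651) or without the variance trend (0.185). Atf4 itself had a change of 0.23 (SE 0.050; limma adjusted p = 0.0649) and Ddit3, a transcription factor of the same response, of 0.34 (SE 0.073; limma adjusted p = 0.0638). Chac1, which degrades glutathione, had a change of 0.72 (SE 0.20; limma adjusted p = 0.106), and Eif2ak4, which encodes GCN2, of -0.075 (SE 0.071; limma adjusted p = 0.603). The difference between the integrated stress response genes and the 32 genes was not tested.

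None of the 5 other lists held a gene that passed the test. The 17 mitochondrial tRNA synthetases had a median change of -0.0025. The 10 synthetase partners and tRNA amidation genes had a median of 0.044 and none at an unadjusted p under 0.05, and the smallest p was that of Gatb (0.24; limma adjusted p = 0.381), listed in the file as Pet112l. Of 29 other amino acid and folate enzymes, 3 were higher and 1 lower at that level (13.8% in all, beside 19.9% of all tested genes). Got1, the cytosolic aspartate aminotransferase, had the smallest p (change 0.22, limma adjusted p = 0.0766).

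Of 25 other amino acid transporters, 1 was higher and 2 were lower at an unadjusted p under 0.05. The smallest p was that of Slc25a22 (-0.30; limma adjusted p = 0.0619), a mitochondrial glutamate carrier. Of 22 genes of amino acid sensing by mTORC1, 1 was higher and 2 were lower at that level (13.6% in all). Lamtor4, a subunit of the lysosomal Ragulator complex listed in the file as 0910001L09Rik, had the smallest p (change -0.28, limma adjusted p = 0.0803).

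**Figure D5:**
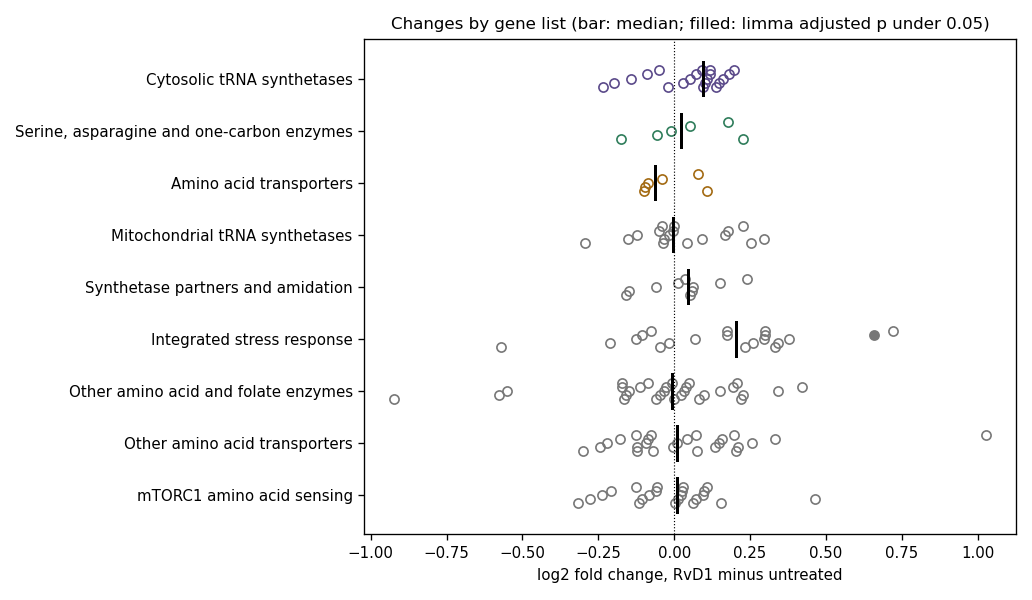
Log2 change with RvD1 minus untreated (x axis) of each gene in the 3 roles described here (coloured) and in 6 lists of related genes (grey), with a bar at each list's median. The filled point is Trib3, the only gene drawn that passed the limma test after adjustment, and the medians of the 3 roles are 0.094, 0.022 and -0.064.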

How the data were processed

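Poly-A RNA was sequenced from 6 libraries made with a TruSeq kit from 100 to 400 ng of RNA, per the labels' protocols. The submitters' processing notes name TopHat2 2.0.7 and mm10. No source used here gives the read counter or the way values were normalized. The authors deposited 1 table of log2 values, labelled normalized in its column names. Its antilogs sum to 12.4 to 12.8 M per library. Depth was estimated from the step between low values, of which 40.7% to 51.3% were whole to within 0.02 reads. That is too few to recover reads, and count models were not used.

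Genes above 0 in at least 3 of the 6 libraries were tested with limma 3.58.1 in R 4.3.3 (treatment as the only term, variance trend with level, two-sided tests, Benjamini-Hochberg threshold 0.05), after a check on simulated data. The correction subtracted splines in length and GC content (GENCODE M21) from each library. Groups and replicate numbers came from the titles. The genes described and the lists were chosen with earlier results of these data known. Values in every library are given for the 3 highest and 3 lowest changes in each role, and for Farsb, named after its values were seen. In a list of related genes those past the test, or else the smallest p, are named (some genes are not reported here), with Eif2ak4, Atf4, Ddit3, Chac1 and Trib3 in any case. Alternatives covered normalization, filters, the variance model, the replicate block, length and GC content, and leaving out each library. Of 126 listed related genes, 123 had a row. Figures were drawn with matplotlib 3.10.9.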

Additional observations from a re-analysis of the deposited data

How the results depend on the processing

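The number of all genes called, 211, was 12 with no filter on low values, 464 when the mean log2 value had to reach 5, 1 with the variance without a trend, 33 with the length and GC correction, and 0 to 451 on leaving out 1 library. The number of the 32 genes called, 0, was 0 to 1 on leaving out 1 library (Vars without RvD1 replicate 1) and 0 under the other unblocked alternatives. At an unadjusted p under 0.05 the number, 6, was 1 with the variance without a trend, beside 16.5% of all tested genes. On leaving out 1 library it was 2 to 8, beside 13.9% to 21.8% of all tested genes. The median change of the 32 genes was 0.0044 to 0.104 on leaving out 1 library. Across those fits Psat1 ran from -0.047 to 0.15, Psph from -0.10 to 0.095, Shmt2 from -0.14 to 0.00081 and Slc3a2 from -0.098 to 0.014, each changing sign. With the length and GC correction, with or without the block, the sign turned for Shmt2 (0.091), Slc7a5 (0.0093), Slc3a2 (0.029), Slc1a5 (0.029) and Slc38a2 (-0.071). Of 270 values of named genes under alternatives, 243 kept direction and side of the threshold. The cause of these changes was not tested, apart from the fewer or more genes or libraries that a filter or an omission brings.

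The replicate numbers were not taken to pair the samples. Deviations of same-numbered libraries over 13176 genes correlated at 0.301, -0.080 and 0.417 for numbers 1, 2 and 3, and RvD1 replicate 2 correlated best with untreated replicate 3 (0.064). With the replicate block, 1896 genes were called (10.0%), 6 of the 32 among them (Asns, Eprs, Mthfd2, Nars and Rars higher, Vars lower). At an unadjusted p under 0.05 there were 14 of the 32, beside 26.9% of all tested genes. With both the block and that correction, 764 genes were called (4.04%), 3 of the 32 among them (Asns and Mthfd2 higher, Slc7a11 lower). In that fit 16 of the 32 had an unadjusted p under 0.05, beside 20.1% of all tested genes. With 3 libraries per group, the 95% intervals of the unblocked test reached from 0.736-fold to 1.34-fold.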
